A study of Drosophila melanogaster with 2 samples.

Results

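Muscle identity genes encode transcription factors that give single founder cells of the Drosophila embryo the character of a particular larval muscle. The genes described here are org-1, Poxm, nau, slou, ap, lbe, vg, Kr and sd, a list of 9 named for their role in muscle identity, out of 13945 protein-coding genes on the 6 main chromosome arms. The measurements are chromatin immunoprecipitation peaks of Lame duck (Lmd) from 2 biological replicates of whole Drosophila melanogaster embryos aged 0 to 18 hours. Both replicates carried a transgene for Lmd fused to eGFP, and the fusion protein was pulled down with an antibody against GFP. There was 1 group, no untransformed embryos or other condition were analysed here, and muscle precursors were mixed with every other tissue of the embryo. The labels name the 2 samples as biological replicates 1 and 2.

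Larval body wall muscles form when a founder cell, which carries the identity of the muscle, fuses with fusion-competent myoblasts that add mass. Lmd is a zinc finger transcription factor needed by the fusion-competent cells. Identity factors act in combination: each founder expresses its own set of them, and the set determines where the muscle attaches, its size and its innervation. Peaks in chromatin from whole embryos do not show in which of these cells a site was occupied.

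A summit, the highest point of a peak, was counted for a gene when it lay in the gene body or within 10 kb on either side. Such windows measured 24.8 to 43.3 kb for the 9 genes and none of them overlapped another, while the median over all protein-coding genes was 22.2 kb. The main list was the conservative set called on both replicates together, with 4998 peaks on the main arms. There were 6361 in the wider joint set, 3929 in the thresholded set of replicate 1 and 5544 in that of replicate 2. The signal of a peak is the value given by the authors' peak caller, and it is compared within 1 list only. Each list also has an unthresholded ranked form, in which most entries are weak, with 112073 main-arm peaks in replicate 1 and 89892 in replicate 2. With 1 group, no test of a difference was possible, and all counts are descriptions of these lists. The number of reads is unknown, so weak sites could have been missed.

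The conservative set placed 10 summits at 3 of the 9 genes: 5 at the T-box gene org-1, 4 at nau, the fly relative of the vertebrate MyoD family, and 1 at the paired-domain gene Poxm. The windows of slou, ap, lbe, vg, Kr and sd held 0. Over all protein-coding genes, 62.6% had at least 1 conservative summit in the same kind of window, a larger share than 3 of 9. Among 12 further muscle identity genes, 7 had one. The 9 genes were chosen with earlier results of these data known, so their share describes this list only. Of the 6 genes at 0, ap and Kr lie in long stretches with no entry even in the unthresholded lists, where a count of 0 may mean unmeasured and not unbound. The same limit may hold for sd, which has few such entries and a stretch of 12.6 kb without any. Upstream of slou, a stretch of 11.5 kb also held no such entry. In the wider joint set the count was 4 of 9 against 70.0% of all genes, in replicate 1 it was 4 of 9 against 54.3%, and in replicate 2 it was 3 of 9 against 69.1%. The gene added in the wider set and in replicate 1 was vg. Among conservative peaks with the highest score of 1000, the same 3 genes had a summit, against 57.2% of all genes. Counted by length, the 9 windows held 3.50 conservative summits per 100 kb and the main arms as a whole 3.73, with 9 of the 10 at org-1 and nau.

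**Figure D1:**
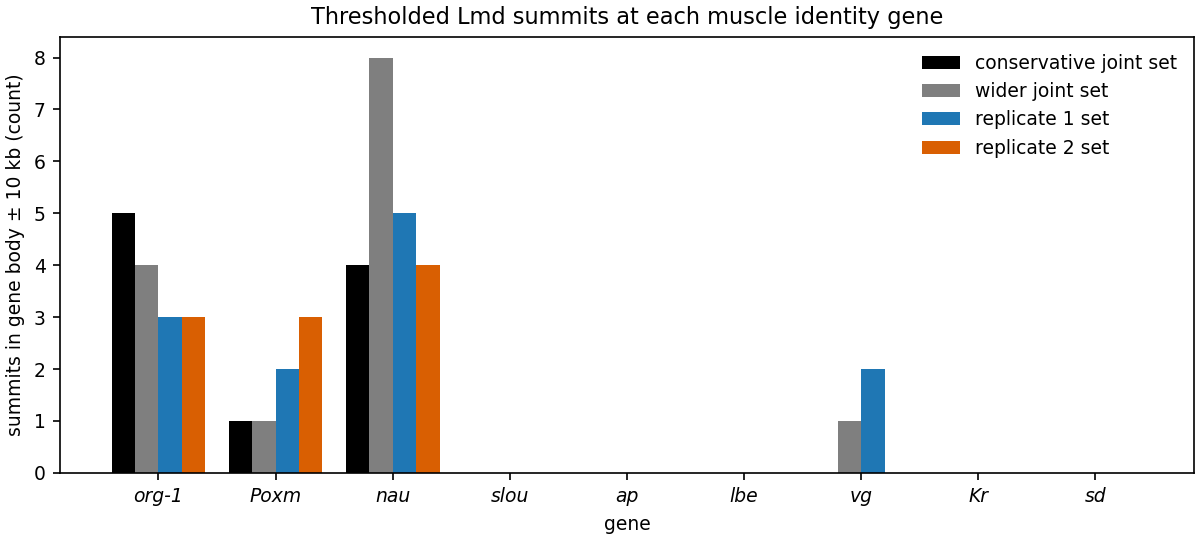
Bars give the number of thresholded summits (vertical axis, count) in the body of each muscle identity gene plus 10 kb on each side, for the conservative and wider joint sets and the set of each replicate. The org-1 and nau windows hold 3 to 8 summits in every set, Poxm 1 to 3, vg 1 and 2 in the wider and replicate 1 sets alone, and slou, ap, lbe, Kr and sd hold 0 in each.

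None of the 10 conservative summits lay inside the body of an identity gene. Over all protein-coding genes 12.5% held a conservative summit in the body, with no account taken of body length. Of the 10 summits, 7 lay upstream of the identity gene and 3 downstream. The nearest transcription start site (TSS) was that of the identity gene for 3 of the 10, 2 at org-1 and 1 at Poxm. Within 500 bp of a TSS of any protein-coding gene lay 6 of the 10, against 38.2% of all conservative summits. Only 2 of these 6 were at the start of the identity gene itself, and the other 4 were at Sptr, CG10301 and CG10365. At a limit of 250 bp, 1 of the 10 remained, the one at Sptr, against 28.7% of all conservative summits. Over all genes 17.2% had a conservative summit within 500 bp of a TSS of their own, and among the 9 identity genes org-1 and Poxm did. Position near a start site does not show which gene a site regulates.

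The sequences around the main summits are shown because they are the stretches from which the strongest signals of org-1, Poxm and nau came. An intron of nau is included because it holds the sole thresholded summits inside the body of any of the 9 genes. Each sequence has 201 bases centred on the summit, read from the plus strand of the Release 6 reference sequence (dm6). Capitals mark words of the form CANATG or its reverse complement, the E-box type bound by Twist, the basic helix-loop-helix factor of early mesoderm. E-boxes of other letters are left in lower case, CACTTG near org-1 and CAACTG in the nau intron, and none of the words searched other than E-boxes is in these 4 stretches. The first is 353 bp upstream of org-1 (chrX:8455322-8455522), the second 423 bp upstream of Poxm (chr3R:8334115-8334315), the third 4669 bp upstream of nau (chr3R:23722926-23723126) and the fourth in an intron of nau (chr3R:23713958-23714158), from the wider joint set.
org-1 upstream: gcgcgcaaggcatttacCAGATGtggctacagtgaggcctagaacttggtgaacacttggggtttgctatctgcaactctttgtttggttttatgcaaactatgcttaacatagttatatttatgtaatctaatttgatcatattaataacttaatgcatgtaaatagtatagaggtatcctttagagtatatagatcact
Poxm upstream: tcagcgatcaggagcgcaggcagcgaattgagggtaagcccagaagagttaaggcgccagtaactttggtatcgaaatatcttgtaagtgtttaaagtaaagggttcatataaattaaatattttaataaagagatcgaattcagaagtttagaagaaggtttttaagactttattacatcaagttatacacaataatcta
nau upstream: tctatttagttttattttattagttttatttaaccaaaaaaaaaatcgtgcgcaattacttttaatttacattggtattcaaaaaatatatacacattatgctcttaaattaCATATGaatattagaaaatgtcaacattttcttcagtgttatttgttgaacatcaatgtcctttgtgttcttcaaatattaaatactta
nau intron: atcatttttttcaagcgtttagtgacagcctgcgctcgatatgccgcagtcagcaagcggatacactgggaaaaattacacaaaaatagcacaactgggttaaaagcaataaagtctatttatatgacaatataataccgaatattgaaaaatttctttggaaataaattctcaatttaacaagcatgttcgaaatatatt
The 2 nau stretches have 21.4% and 32.3% G and C bases, that of org-1 34.8% and that of Poxm 33.8%. The median over all conservative summits was 34.8%, and over the 10 summits at identity genes 33.6%.

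The gene org-1 encodes a T-box factor, a relative of vertebrate Tbx1, that sets the identity of several body wall muscles. It lies on the X chromosome (8447691 to 8455069, minus strand) and had the strongest peak of the group. That peak (8455280 to 8455581) had a signal of 965 and rank 132 in the conservative set, 353 bp upstream of the org-1 TSS and outside any protein-coding gene. Its signal was higher than that of 97.4% of the peaks in the set, and 95.4% of protein-coding genes had a weaker strongest summit in their window or none.

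Both replicates placed the org-1 promoter peak almost at the same base. In replicate 1 its signal was 507 with rank 84 of the thresholded set, at the same summit as the joint peak. In replicate 2 it was 461 with rank 218, and the summit lay 14 bp away. The next site of the window was at the far upstream edge, 9499 bp from org-1, where the summit (peak 8464426 to 8464694, signal 476, rank 533) lay 130 bp from the TSS of Sptr, which encodes sepiapterin reductase. It too was in both replicate sets, with signals of 155 in replicate 1 and 324 in replicate 2.

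The other 3 org-1 summits were weak, and the replicates differed on them. One lay 1000 bp upstream of org-1 (signal 86.5, rank 4274) and was in the set of replicate 1 but not of replicate 2, where the ranked list had an overlapping peak of signal 36.9 at a global irreproducible discovery rate (IDR) of 0.736. A low IDR marks a peak ranked high alike in the lists compared, and the thresholded sets end at about 0.01. Another lay 2611 bp downstream (signal 83.1, rank 4401) and was in the set of replicate 2 but not of replicate 1, where its global IDR was 0.0104, just outside the threshold. The last, 3223 bp downstream (signal 75.2, rank 4633), was in neither replicate set and not in the wider joint set. In the ranked lists all 3 had an overlapping peak in both replicates. The strong org-1 sites were thus shared by all 4 thresholded sets, and the weak ones were not.

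Poxm encodes Pox meso, a paired-domain factor of the somatic mesoderm. It lies on chromosome 3R (8319025 to 8333792, minus strand) and had 1 conservative peak (8334073 to 8334309), with a signal of 564 and rank 389, 423 bp upstream of its TSS. The signal was 264 in replicate 1, rank 324 with a summit 1 bp from the joint one, and 300 in replicate 2, rank 491 with a summit 23 bp away. It was stronger than 91.9% of the set of replicate 1 and 91.2% of that of replicate 2. Each replicate set also had a second summit, 205 bp farther upstream in replicate 1 and 206 bp in replicate 2, at 629 and 606 bp from the TSS. Its signal was only 11.1 in replicate 1, while in replicate 2 it was 113, and the joint sets did not list it.

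A further Poxm summit was found in 1 replicate alone. Replicate 2 had it 903 bp downstream of Poxm, in an intron of Ctr1B, which encodes a copper transporter, with a signal of 46.5, and replicate 1 had no overlapping peak even in its ranked list. An intron of Poxm itself held a summit in the joint ranked list at a global IDR of 0.0355, with a signal of 58.8, which is outside the threshold of the deposited sets. The Poxm window held many weak entries, with 43 ranked summits in replicate 1 and 36 in replicate 2. Per kb this was more than at 88.8% and 79.8% of protein-coding genes.

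nau encodes Nautilus, a basic helix-loop-helix factor of the MyoD family that is expressed in a subset of founder cells. It lies on chromosome 3R (23712814 to 23718357, minus strand) and none of its 4 conservative summits was nearest to its own TSS. The strongest (23722917 to 23723099, signal 330.5, rank 944) lay 4669 bp upstream of nau and 305 bp from the TSS of CG10365. Replicate 1 gave it a signal of 131 and replicate 2 a signal of 188, with summits 9 bp and 0 bp from the joint one. The other sites upstream were in an intron of CG10365. One at 8615 bp from nau (signal 262, rank 1334) was in both replicate sets, at signals of 73.5 and 182. Another at 5393 bp (signal 90.8, rank 4136) was in the set of replicate 1 alone, at 46.0. The ranked list of replicate 2 had an overlapping peak there, with a signal of 45.2 at a global IDR of 0.169.

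On the downstream side of nau the replicates ranked the shared site differently. The peak (23709576 to 23709939, signal 165, rank 2420) lay 3056 bp beyond nau and 400 bp from the TSS of CG10301. Its signal was 116 in replicate 1, rank 1316 of the set, and 50.4 in replicate 2, rank 4623. Of the 4 conservative nau peaks, all were in the set of replicate 1 and 3 were in that of replicate 2.

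The wider joint set had 8 summits at nau, more per kb than at 99.6% of protein-coding genes, against 4 at org-1 and 1 at Poxm. Summits of overlapping peaks counted separately, at nau as at all genes, and that share depended on the list. It was 94.45% in the conservative set, 99.3% in replicate 1, 91.8% in replicate 2 and 33.1% in the joint ranked list. Of the 4 added in the wider set, a pair lay in an intron of nau, with summits 4299 and 4100 bp from its TSS. Their signals were 70.9 and 22.6, with ranks 5552 and 6238 of 6406. The pair were the sole summits of any thresholded set inside the body of any of the 9 genes. Their global IDR in the joint ranked list was 0.0135 for each, so they fell just outside the conservative set, and neither was in a replicate set. Another (signal 81.4) lay 3760 bp upstream of nau at the promoter of CG10232, and replicate 2 had it at a signal of 85.3 while replicate 1 had no overlapping peak. The last was a companion of the downstream site, 2851 bp beyond nau and 195 bp from the TSS of CG10301, with a signal of 7.97 and rank 6325. Replicate 1 had such a companion too, with a signal of 15.0.

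**Figure D2:**
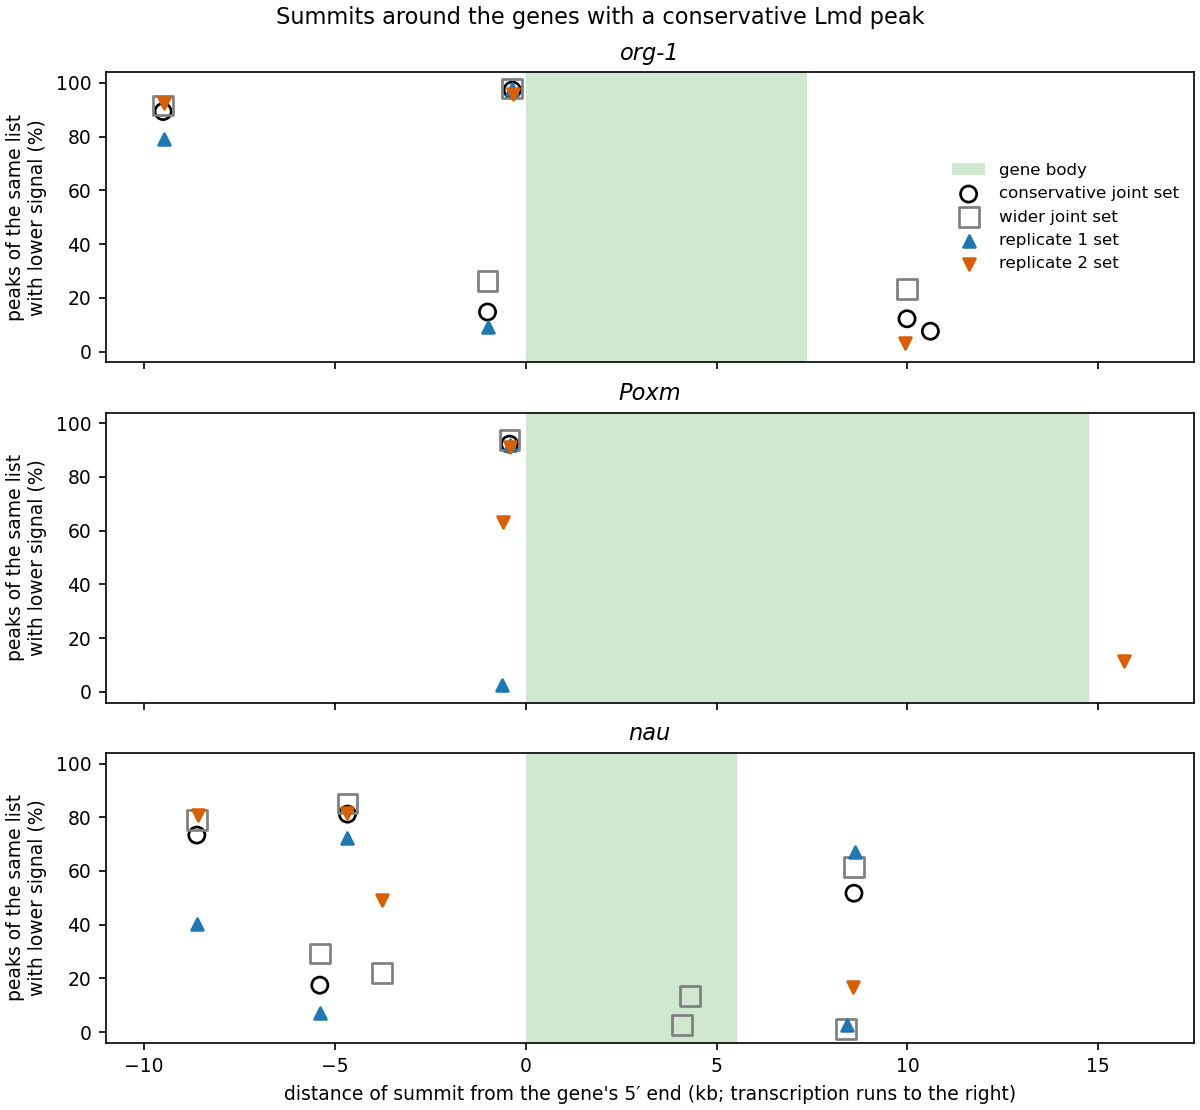
Points give the summits around org-1, Poxm and nau in the 4 thresholded sets, by distance from the 5′ end of the gene (horizontal axis, kb, transcription to the right) and by the share of the same list with lower signal (vertical axis, %), with the gene body shaded. The org-1 and Poxm promoter summits stand above 90% in all 4 sets, and only the wider joint set has points inside a gene body, at nau.

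vg encodes Vestigial, a cofactor without a DNA-binding domain of its own that works with the TEAD-family factor Scalloped, the product of sd. The gene lies on 2R (12884201 to 12899385, plus strand) and had no conservative summit, the nearest being 11627 bp from the gene with a signal of 240. The wider joint set had 1 summit, 4035 bp upstream (12880144 to 12880256, signal 174, rank 2279), which lay 64 bp from the TSS of Nmda1 and close to that of AspRS, a tRNA synthetase gene. Replicate 1 had a peak there with a signal of 73.9 and rank 2359, and a weaker companion of 4.34. Replicate 2 had no overlapping peak, neither in its thresholded set nor in its ranked list. The strongest ranked summit of replicate 2 at vg was of another place, an intron, with a signal of 28.8 at a global IDR of 0.168. In the joint ranked list a summit in the coding sequence of vg had a global IDR of 0.0385 and a signal of 60.4, and both replicates had a ranked summit within 100 bp of each other there, with signals of 34.5 and 24.0.

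sd had no summit in any thresholded set. It lies on the X chromosome (15804370 to 15827682, plus strand) and is the longest of the 9 genes, with 7 annotated start sites. The nearest conservative summit was 16611 bp from the gene, with a signal of 199. Its ranked entries were few, 13 in replicate 1 and 11 in replicate 2, more per kb than at only 8.05% and 6.45% of protein-coding genes. Between the replicates 1 of these matched within 100 bp, or 7.69% and 9.09%, against 37.2% and 46.3% of all main-arm summits. In replicate 1 the strongest sd entry was in the coding sequence of the neighbouring gene Chc, at a signal of 21.1. In replicate 2 it was near the TSS of PGRP-LE, at 33.3. Neither sd nor vg had a summit of the conservative set in its window, while 62.6% of all protein-coding genes had at least 1. A pair of genes cannot show a difference from that share.

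slou and lbe are homeobox genes of the same NK-type cluster on chromosome 3R, 102 kb apart. slou (21548661 to 21557182, minus strand), also known as S59, had 0 summits in every thresholded set, and the nearest conservative summit was 28311 bp from the gene, with a signal of 898. lbe (21441577 to 21446537, minus strand), which specifies the segment border muscle, also had 0, and its nearest conservative summit lay 21393 bp away with a signal of 160. That summit was in an intron of the adjacent paralogue lbl, whose 5′ end lies 7444 bp from lbe.

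Weak entries were listed at slou and lbe. The ranked lists of replicates 1 and 2 held 28 and 18 summits at slou and 27 and 22 at lbe. Of these ranked summits, 10 at slou and 8 at lbe lay within 100 bp of a summit of the other replicate. In replicates 1 and 2 that was 35.7% and 55.6% at slou and 29.6% and 36.4% at lbe. Over all main-arm summits the shares were 37.2% and 46.3%. The joint ranked list had 1 slou summit at a global IDR of 0.0365, 566 bp beyond the 3′ end, with a signal of 43.1. At lbe the strongest entry of replicate 1 (signal 40.8, global IDR 0.0127) lay between lbe and lbl, 4489 bp downstream of lbe. Its nearest TSS was that of lbl at 2955 bp, against 9449 bp to the TSS of lbe. Replicate 2 had no summit within 100 bp of it. The strongest entry of replicate 2 at lbe was 116 bp upstream of the lbe TSS, with a signal of 21.6 at a global IDR of 0.643.

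ap and Kr had almost no entries even without a threshold. ap encodes Apterous, a LIM-homeodomain factor of lateral transverse muscles and of the dorsal wing, and lies on 2R (5706202 to 5727525, minus strand). Its window held 2 ranked summits in replicate 1 and 2 in replicate 2, none of them in the gene body and none shared, and 0 in both joint ranked lists. Kr encodes Krüppel, a zinc finger repressor first used as a gap gene and later in muscle founders and other tissues, and lies on 2R (25226611 to 25231394, plus strand). Its window held 0 summits in all 4 ranked lists, which was so for 1.86% of all protein-coding genes. The nearest ranked summits were 47224 bp from Kr in the joint list, 47172 bp in replicate 1 and 47430 bp in replicate 2.

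The stretch without any ranked summit around Kr measured 112.9 kb (25165640 to 25278565), held 8 other protein-coding genes and was 1 of 9 stretches at least as long on the main arms. Kr ends 55.5 kb from the end of the reference arm. The stretch around ap measured 34.2 kb, and 82 stretches on the main arms were at least as long. At sd the longest was 12.6 kb and at slou 11.5 kb, while at org-1, Poxm, nau, lbe and vg it was 1.5 to 4.7 kb. Whether a bound site could have been detected in these stretches was not tested. At slou and lbe weak entries were listed and none passed the threshold. The stretch of 11.5 kb at slou began in its upstream flank, so the same limit may hold there.

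**Figure D3:**
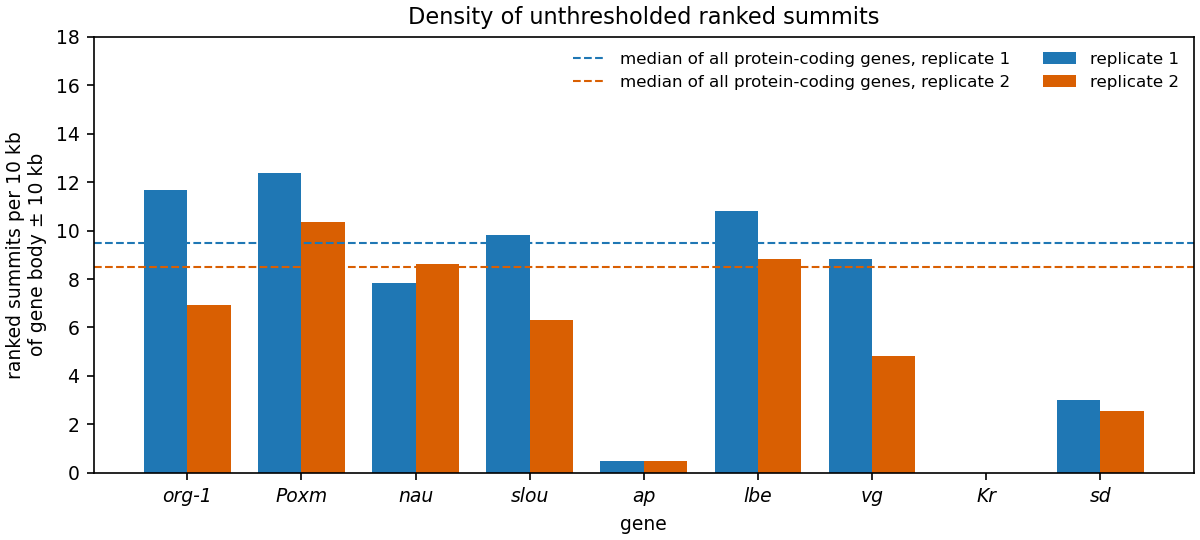
Bars give the number of unthresholded ranked summits per 10 kb of gene body plus 10 kb on each side (vertical axis) for each identity gene in replicates 1 and 2, and dashed lines give the median over all protein-coding genes in the same list. Poxm and lbe lie above the line in both replicates, lbe at 10.8 and 8.81, Kr is at 0, ap is at 0.484 in both, and sd is at 3.0 and 2.54 against medians of 9.47 and 8.48.

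In the ranked lists 8 of the 9 genes had an entry, and ordered by their strongest entry both replicates had the same 3 genes at the top, while Kr had none. In replicate 1 the strongest entry had rank 89 at org-1, 338 at Poxm and 1132 at nau, and in replicate 2 rank 227, 505 and 1044. Below these the replicates differed: vg (rank 2448), lbe (5113) and slou (6267) followed in replicate 1, then ap (17143) and sd (26419), while in replicate 2 slou (7708) and sd (7844) came before vg (9958), ap (10452) and lbe (18551). The order of the 5 genes below nau thus differed between the replicates. Ranks from lists of different length are set side by side here and show no change.

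**Figure D4:**
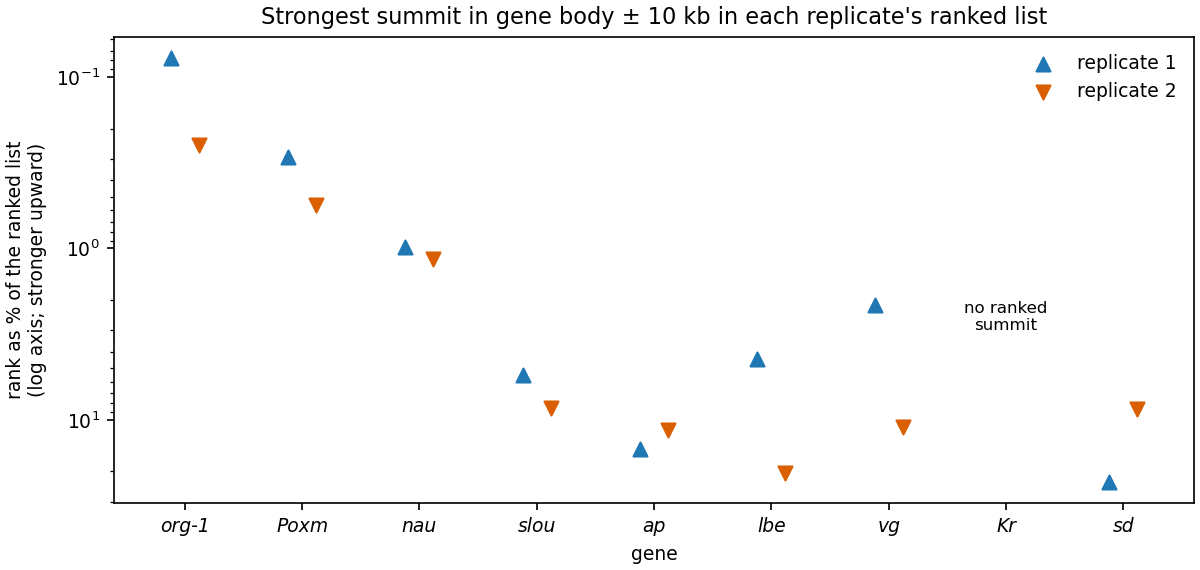
Points give, for each identity gene, the rank of the strongest summit in its window as a percentage of all peaks in the ranked list of replicate 1 or replicate 2 (vertical log axis, stronger upward). The org-1, Poxm and nau points are the top 3 in that order in both replicates, the other 5 genes with a point are lower, and Kr has no point.

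The 10 conservative peaks of the identity genes were shared between replicates at rates near those of the whole set, with no test possible on 10 peaks of 3 genes. In both replicate sets lay 6 of the 10, or 60%, against 63.7% of all conservative peaks, 3 more were in 1 replicate set and 1 was in none. The share in the set of replicate 1 was 8 of 10 against 71.4% of all, and in the set of replicate 2 it was 7 of 10 against 83.0%. All 10 had an overlapping peak in the ranked lists of both replicates. For the 6 peaks in both sets, the replicate summits lay 0 to 27 bp from the joint summit. The conservative set was made from both replicates, so its peaks are not independent of them. Signals of the 10 ran from 75.2 to 965, with 6 above the median of the set, 160, and 4 above 273, which 25% of the set exceeded.

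Words of known factors were counted within 100 bp of the 10 summits on both strands. CANATG was at 6 of the 10 summits, 3 at org-1 and 3 at nau, against 35.1% of all conservative summits and 38.3% of windows 1000 bp to the lower-coordinate side of them. Every summit with any E-box, CANNTG, had one of this form, 6 of 10 against 59.6% of all summits. TAATTA, a homeodomain core, was at 1 of 10, the Sptr summit of the org-1 window, against 18.4%. GGAATG, the core read by Scalloped, was at 1 of 10, the downstream nau summit, against 7.32%. The Mef2-type word (CTA, any 4 bases, TAG) was at none of the 10 against 3.82%, CCACCCA of the Gli type at none against 2.26%, the T-box word GGTGTGA at none against 1.56%, the DREF word TATCGATA at none against 2.36%, and GAGAGAG at none against 2.68%. The Poxm summit, one weak org-1 summit and the nau summit at 8615 bp held none of the 9 words. With 10 summits these counts are a description of letters, and E-boxes of 6 bases with free positions are frequent in any sequence.

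Of 12 further genes known for muscle identity, namely eve, lbl, lms, Dr, kn, Ptx1, tup, mid, ara, caup, Six4 and run, 7 had a conservative summit in the same kind of window, 9 summits in all, against the 62.6% of all genes. The 4 with the strongest were Six4 (signal 367, 55 bp from the TSS of tzn), tup (316.5, 111 bp from the TSS of CG10602), mid (277, 9240 bp downstream of the gene) and Dr (172, 1937 bp downstream). None of the 12 had a conservative summit within 500 bp of its own TSS, against 17.2% of all genes. In the body, 3 of the 12 held one, against 12.5% of all genes, with no account taken of body length. These were lbl, kn and caup, each in an intron, with signals of 111 to 160. Whether the 2 lists differ was not tested.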

How the data were processed

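Peak lists from chromatin immunoprecipitation of Lmd-eGFP in 2 replicates were used as deposited. Per the labels, coordinates are of assembly dm6 and chromatin was sonicated to 200 to 800 bp. Which aligner and caller were used is not given in the sources used here. Each peak carries a signal, the authors' deposited value, with no normalization stated. The deposited score is a whole number that follows the global IDR, with 830 standing for about 0.01, and the deposited ranked lists hold the global IDR as −log10 values up to 5. A weak summit beside a stronger one can carry the highest score of 1000. The Poxm summit of signal 11.1 in replicate 1 did so at rank 3889 of 3983. The listing deposited with the files names a control file as 1 source of every list. Every conservative peak was found past the threshold in 1 joint ranked list, and every wider peak in the other. The joint ranked lists held 99 and 127 more main-arm peaks past the threshold than these sets, and the listing names a further source file whose role is not stated. Columns 13 to 20 of the ranked lists were not used.

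Genes and TSSs came from annotation release 115, and sequence from the Release 6 reference. No list reached beyond the length of its reference arm. Summits on 2L, 2R, 3L, 3R, 4 and X were placed with Python 3.11.15, numpy 2.4.6 and pandas 2.3.3, after the counting functions were checked on simulated data. Ranks and shares of lower signal count all peaks of a deposited list. A replicate peak matched by at least 1 bp of overlap, or by summits within 100 bp where stated. The rule for named genes took all 9 genes with their conservative summits, the strongest summit of each other list and the nearest gene, and values for up to 4 of the further genes; lbl, kn and caup were named after their values were seen. The members, lists and words were chosen with earlier results of these data known. The intronic nau sequence was chosen after its values were seen. Read depth is unknown, and 2 replicates of 1 group allow no test.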

Additional observations from a re-analysis of the deposited data

How the results depend on the processing

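The count of 3 identity genes with a summit was 4 in the wider joint set, 3 to 4 with 1 replicate left out, 3 at the highest score, 2 with a flank of 2 kb and 2 when the identity gene had to own the nearest TSS. It was 0 with no flank, where 12.5% of all protein-coding genes had a summit in the body. It was 5 in the joint ranked list at a global IDR of 0.05, which added slou and vg. Shares over all genes at that IDR, with a flank of 2 kb and by nearest TSS were not counted, so those counts have no background here. The count of 10 summits was 10 to 12 with 1 replicate left out, 14 in the wider set, 15 at a global IDR of 0.05 and 7 at the highest score, but 3 with a flank of 2 kb, 3 by nearest TSS and 0 with no flank, so it rests on sites away from the gene. The promoter share of 60% was 75% in the set of replicate 1 and 60% in that of replicate 2, where all main-arm peaks gave 36.1% and 45.15%. It was 64.3% in the wider set, against 38.1% of all its main-arm peaks. At the highest score it was 85.7% and at a global IDR of 0.05 it was 40%, with no share over all peaks counted. A promoter limit of 250 bp gave 10%, because 5 of the 6 promoter summits lay 305 to 423 bp from the TSS. All conservative summits gave 28.7% at that limit. Requiring an overlap of 50% of the peak or summits within 100 bp left the replicate shares at 80% and 70%. The 14 pairs of a summit and a word within 100 bp of it were 10 within 50 bp and 18 within 150 bp, and a CANATG word counts in them under CANNTG too. No paired analysis was possible because there is 1 group. Unknown read depth limits what a count of 0 shows.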
